A study of Rattus norvegicus with 15 samples.

Results

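Among the 15 rat retina RNA-seq libraries of the series, 9 came from eyes that had received cells, and these were compared by how much leukocyte RNA each one held. The 2 sides were chosen by a measured value: the 9 libraries were ranked by the level of Ptprc, the gene of CD45, a receptor tyrosine phosphatase carried by nearly all nucleated blood cells. The 5 highest (MSC 1, MSC 2, MSCEPO 1, DPSC 2 and MSC 3) were set against the 4 lowest (MSCEPO 2, DPSC 1, MSCEPO 3 and DPSC 3). All animals were Sprague-Dawley rats at post natal week 12, and the retinas were taken on day 31. The MSC retinas had received human Wharton's jelly mesenchymal stem cells in the vitreous, and the MSCEPO retinas the same type of cell made to express erythropoietin with a lentivirus. The third product is labelled DPSC, and the labels do not spell the name out. Each product has 3 libraries, with 40 mg/kg of sodium iodate, an oxidant given systemically that damages the retinal pigment epithelium and photoreceptors. By the labels the cells were injected at 100000 cells per µl, after 2 mg/kg of dexamethasone and before 10 mg/kg/day of cyclosporin, both of which suppress immune responses. The study's methods give a lower cell density. The 3 Sham libraries came from rats given sodium iodate and the vehicle without cells, and the 3 NT libraries from healthy untreated rats. The labels give no dexamethasone or cyclosporin for Sham or NT. By the labels, cell-treated and Sham libraries thus differ in these drugs as well as in the cells.

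A cell graft from another species can draw T cells, B cells and macrophages into the eye, which is normally kept nearly free of circulating leukocytes. Resident microglia also carry CD45, at a low level, and multiply when photoreceptors die. Müller glia, the main support cells of the retina, answer injury by raising intermediate filaments and acute phase proteins, a state called reactive gliosis. A whole retina holds all of these cells at once, so fewer cells of a type and less RNA per cell cannot be told apart.

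The values are rlog values, a log2 scale on which each library is pulled toward the mean of the gene, so every difference below is in rlog units and understates the change of low genes. Ptprc read 12.15 in MSC 1, 10.49 in MSC 2, 10.31 in MSCEPO 1, 9.80 in DPSC 2 and 9.59 in MSC 3. In the low libraries it read 9.44 in MSCEPO 2, 7.97 in DPSC 1, 7.94 in MSCEPO 3 and 7.42 in DPSC 3. The boundary of the ranking falls in a gap of 0.16 between MSC 3 and MSCEPO 2, whereas the gap below MSCEPO 2 is 1.47. MSCEPO 2 is thus a low library by rank whose Ptprc level lies beside the high ones, and results are given with and without it. All 3 MSC libraries are high, while MSCEPO and DPSC each have 1 high and 2 low libraries, so a difference within a product can come from MSCEPO and DPSC alone. Since the ranking used values of these same libraries, the contrast of high with low is a description and carries no test. Ptprc lay between 6.37 and 6.88 in the NT libraries and between 7.47 and 7.77 in the Sham libraries. MSCEPO 3 and MSC 1 stood apart from the rest. MSCEPO 3 had 1368 genes (8.85%) more than 1 away from the mean of the other 8, and MSC 1 had 1019 (6.59%), whereas the other 7 had 136 to 540.

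Other leukocyte genes were read as a check of the label. Of a list of 18 pan-leukocyte markers 16 were measured, and the 15 left after taking out Ptprc, which set the ranking, all had a higher mean in the high libraries, with a median difference of 1.2. In 5 of the 15 the 5 high libraries all lay above the 4 low ones, where 4.83% of all 15461 genes did so and 3.27% lay wholly below. Without MSCEPO 2 the count was 11 of 15, against 13.7% of all genes, and without MSC 3 it was 13 of 15, against 9.2%. Leaving out Ptprc was chosen after the values were seen. Cd79a, a chain of the B cell receptor complex, read 9.90 in MSC 1, 7.87 in MSC 2, 7.43 in MSCEPO 1, 7.07 in DPSC 2, 6.65 in MSC 3, 6.64 in MSCEPO 2, 4.14 in DPSC 1, 4.19 in MSCEPO 3 and 4.17 in DPSC 3. The 3 lowest libraries were at the level of NT (4.17 ± 0.18, SD, n = 3) and Sham (4.15 ± 0.15, n = 3) for this gene. Cd3e, a chain of the T cell receptor complex, ranged from 5.53 to 9.67 in the high libraries and from 4.41 to 5.18 in the low ones. Csf1r, the receptor that macrophages and microglia need to survive, ranged from 10.76 to 12.12 in the high and from 9.73 to 10.91 in the low libraries, so these overlapped through MSCEPO 2.

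**Figure D1:**
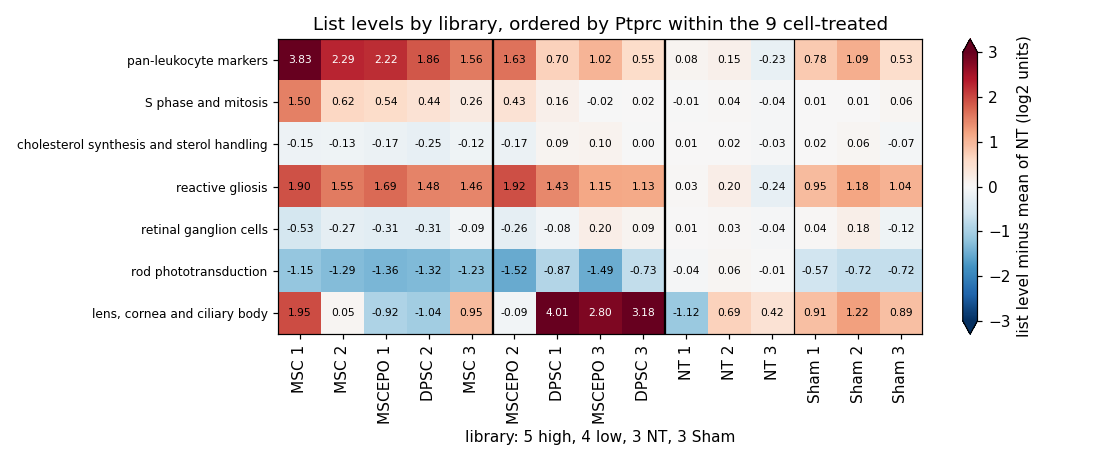
Mean rlog level of 7 gene lists in each library (columns), minus the mean of the 3 NT libraries, in log2 units. The 9 cell-treated libraries stand in the order of Ptprc, from 3.83 for the pan-leukocyte list in MSC 1 to 0.55 in DPSC 3, and the lens list is highest in DPSC 1, DPSC 3 and MSCEPO 3.

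The promoter of Ptprc is shown because the ranking rests on this gene. It spans 250 bases before to 50 bases after the RefSeq start site in GRCr8, chr13:52259697-52259996, on the minus strand, and the capitals mark GAGGAA, the core of the site of the myeloid and lymphoid factor PU.1.
Ptprc: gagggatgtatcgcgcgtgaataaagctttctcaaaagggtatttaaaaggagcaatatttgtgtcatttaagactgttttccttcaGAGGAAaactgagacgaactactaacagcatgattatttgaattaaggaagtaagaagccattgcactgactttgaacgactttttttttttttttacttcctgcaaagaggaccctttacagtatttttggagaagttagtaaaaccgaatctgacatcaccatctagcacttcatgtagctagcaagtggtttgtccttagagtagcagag
On either strand these letters were found in 8 of the 11 pan-leukocyte genes that have a RefSeq promoter, and in 27.5% of all 27457 promoters. A match of letters is a description and not a bound site.

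Outside the immune system most differences between the high and low libraries were small. Of 15461 genes, 746 (4.83%) were higher in every high library than in any low one, and 505 (3.27%) were lower in the same sense. Of the 13912 genes with a symbol and not immune by list or name, 575 (4.13%) and 482 (3.46%) were so, near the shares of all genes. A difference over 1 was rare among these non-immune genes, with 31 higher and 1 lower. The 31 still include leukocyte genes that the lists and name patterns missed, such as Lax1, Spn and Lcp2. Over all genes 140 were higher by more than 1 (0.906%) and 1 lower (0.00647%). MSCEPO 2 had the largest part in these counts: without it 2112 genes (13.7%) were higher and 1681 (10.9%) lower, and 474 and 46 passed a difference of 1, of which 188 and 45 were non-immune with a symbol. Over all genes, the counts without MSC 3 were 1422 and 987, with 339 and 1 over a difference of 1, and without MSC 1 they were 1207 and 863, with 112 and 18. Leaving out MSCEPO 3 gave 863 (5.58%) and 606 (3.92%), with 141 and 11 over a difference of 1, and leaving out DPSC 1 gave 998 and 830. Fewer libraries overlap less by construction, so a rise in such a count is not in itself a larger effect. The median difference over all genes was 0.02.

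Genes of cell division had a higher mean in the high libraries throughout the list. All 29 measured genes of S phase and mitosis were on the positive side, with a median of 0.45, against 0.02 for all genes. Mki67, the nuclear antigen used to count cycling cells, read 9.94 in MSC 1, 8.22 in MSC 2, 7.90 in MSCEPO 1, 7.37 in DPSC 2 and 7.05 in MSC 3. In the low libraries it read 7.35 in MSCEPO 2, 6.66 in DPSC 1, 5.86 in MSCEPO 3 and 5.19 in DPSC 3. The level thus stepped down almost in the order of Ptprc, and the groups overlapped only through MSCEPO 2, which was above MSC 3. DPSC 3 was below the NT libraries, which lay between 5.31 and 5.61, and Sham lay between 5.47 and 6.02. Top2a, a topoisomerase that untangles replicated chromosomes, followed the same steps from 9.09 in MSC 1 to 5.08 in DPSC 3, with 6.88 in MSCEPO 2 and 6.20 in MSC 3. Its difference was 1.61, and 1.97 without MSCEPO 2.

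The gene of the list whose groups did not overlap, 1 of 29 against 4.83% of all genes, was Aurkb, the kinase of the chromosomal passenger complex. It read 8.44 in MSC 1 and between 7.41 and 7.60 in the other high libraries, and between 7.06 and 7.32 in the low ones. Its difference was 0.53, and 0.34 without MSC 1. Without MSCEPO 2, 11 of the 29 genes did not overlap, all higher, against 13.7% of all genes, and without MSC 3 it was 8 of 29, against 9.2%. Cenpf, a kinetochore protein, and Mcm3, a subunit of the replicative helicase, had differences of 0.93 and 0.90. Knl1, the kinetochore scaffold, was among the largest positive differences outside the immune lists, at 5.61 to 7.44 in the high and 4.71 to 5.58 in the low libraries. The list level was 8.06 in MSC 1, and the list's median was 0.27 without that library. In bulk RNA the cell type that carries these transcripts was not resolved: proliferating leukocytes are one of the cell types that hold them, and their part was not tested.

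The promoters of Mki67 and Top2a are shown because these genes had the largest differences of the list. Capitals mark TTTGAA, the cell cycle genes homology region, or its reverse complement TTCAAA, and both promoters lie on the minus strand of GRCr8, Mki67 at chr1:199952544-199952843 and Top2a at chr10:84473044-84473343.
Mki67: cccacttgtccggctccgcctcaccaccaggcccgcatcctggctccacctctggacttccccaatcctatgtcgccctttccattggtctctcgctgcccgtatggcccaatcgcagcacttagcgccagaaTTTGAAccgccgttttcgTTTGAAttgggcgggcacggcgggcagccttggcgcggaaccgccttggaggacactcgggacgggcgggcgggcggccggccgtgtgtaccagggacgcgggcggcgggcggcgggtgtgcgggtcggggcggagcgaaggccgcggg
Top2a: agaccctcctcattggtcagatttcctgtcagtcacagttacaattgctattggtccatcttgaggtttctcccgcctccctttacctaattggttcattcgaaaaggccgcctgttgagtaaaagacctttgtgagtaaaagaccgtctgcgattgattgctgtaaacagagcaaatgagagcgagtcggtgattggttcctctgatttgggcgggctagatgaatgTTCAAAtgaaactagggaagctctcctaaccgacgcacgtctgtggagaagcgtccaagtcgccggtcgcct
Counted from the start site, the letters begin at -117 and -99 in Mki67 and at -22 in Top2a. They were found in 11 of the 23 genes of the list with a RefSeq promoter, and in 18.1% of all promoters.

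**Figure D2:**
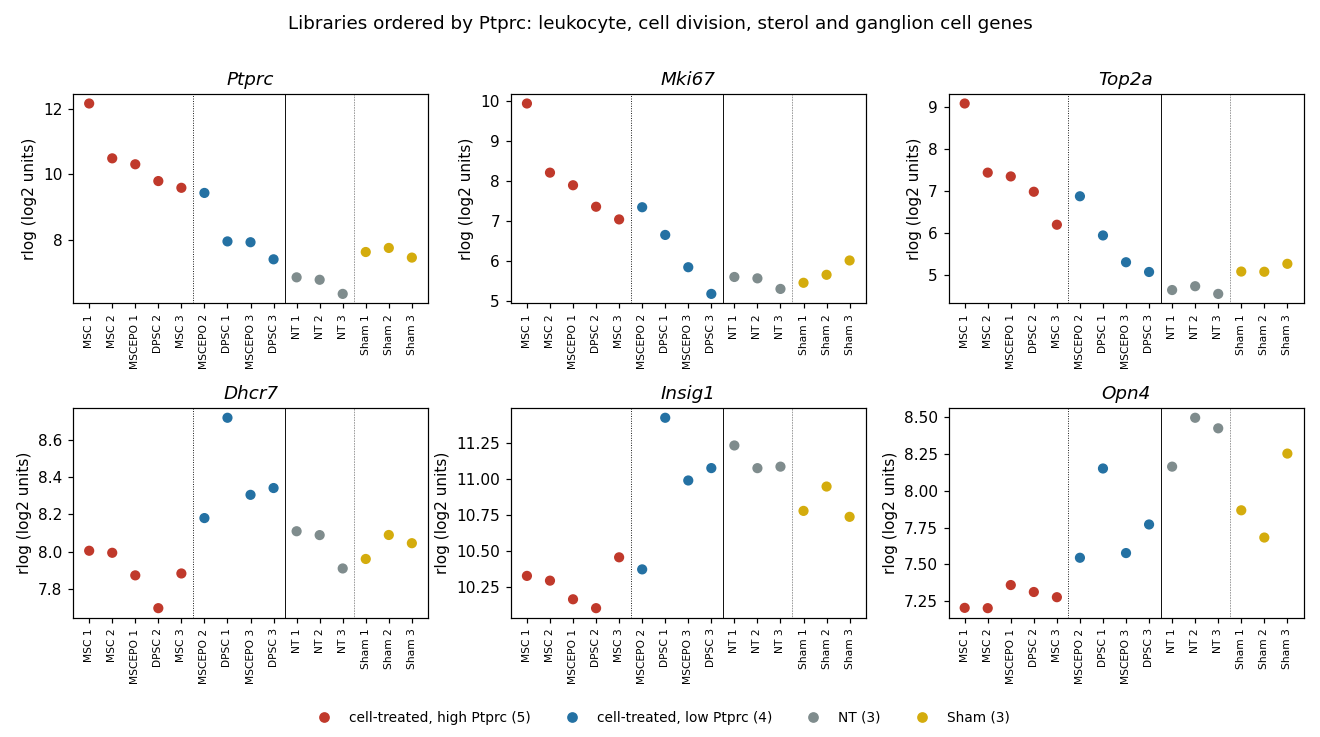
The rlog level (log2 units) of 6 genes in each of the 15 libraries, with the cell-treated libraries in the order of Ptprc and dotted lines between groups. Mki67 and Top2a step down with Ptprc, while Dhcr7, Insig1 and Opn4 are lower in the 5 high libraries, and for Insig1 also in MSCEPO 2, which read 10.37.

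Genes of cholesterol synthesis went the other way. The median of the 24 measured genes was -0.23, with 19 on the negative side. Dhcr7 was among 3 that were lower without overlap, against 3.27% of all genes. Dhcr7, which catalyses the final step to cholesterol, read 8.01 in MSC 1, 7.99 in MSC 2, 7.87 in MSCEPO 1, 7.70 in DPSC 2 and 7.88 in MSC 3. It read 8.18 in MSCEPO 2, 8.72 in DPSC 1, 8.30 in MSCEPO 3 and 8.34 in DPSC 3, so MSCEPO 2 was the nearest low library to the high ones, and the difference was -0.49. For Dhcr7 it was the low libraries (8.18 to 8.72) that stood apart, since the high libraries (7.70 to 8.01) lay near the NT mean of 8.04 and the Sham mean of 8.03.

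Insig1, which retains the sterol sensor in the endoplasmic reticulum and is itself induced when sterol is short, showed the place of MSCEPO 2 most plainly. It lay between 10.10 and 10.46 in the high libraries and read 10.37 in MSCEPO 2, but 11.42 in DPSC 1, 10.99 in MSCEPO 3 and 11.08 in DPSC 3. Its difference was -0.70, and -0.89 without MSCEPO 2. Hmgcs1 and Fdft1, enzymes of the mevalonate and squalene steps, had differences of -0.43 and -0.52. Unlike for Dhcr7, the high libraries stood apart for Insig1, Hmgcs1 and Fdft1. Their means of 10.27, 11.36 and 10.26 lay below those of Sham (10.82, 11.75 and 10.85) and NT (11.13, 12.01 and 11.09). Without MSCEPO 2, 12 of the 24 genes were lower without overlap, against 10.9% of all genes, and 1, Abca1, was higher, against 13.7%. Without MSC 3, 5 of the 24 were lower, against 6.38% of all genes. Abca1, which exports cholesterol from macrophages and other cells, lay between 10.55 and 11.34 in the high libraries and read 10.58 in MSCEPO 2, but 9.63 to 9.93 in the other low libraries. Apoe, the lipoprotein of glia and macrophages, had a difference of 0.52 but overlapped. The list as a whole moved little, with mean levels of 10.04 in the high and 10.20 in the low libraries. It was also 10.20 in NT and in Sham, so for the list the high libraries were the ones below NT and Sham.

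Insig1 and Fdps, a synthase of the mevalonate pathway, are shown because they are sterol genes with a RefSeq promoter whose high libraries did not overlap the low ones without MSCEPO 2. Capitals mark CCAAT, the box bound by NF-Y, or its reverse complement ATTGG. Both are on the minus strand of GRCr8, Insig1 at chr4:8057720-8058019 and Fdps at chr2:176804767-176805066.
Insig1: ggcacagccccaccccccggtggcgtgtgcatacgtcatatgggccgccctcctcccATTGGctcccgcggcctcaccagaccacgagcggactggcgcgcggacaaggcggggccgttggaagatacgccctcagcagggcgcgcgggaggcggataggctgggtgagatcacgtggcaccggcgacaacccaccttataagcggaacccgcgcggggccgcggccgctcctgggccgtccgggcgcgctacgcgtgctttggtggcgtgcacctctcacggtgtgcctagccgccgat
Fdps: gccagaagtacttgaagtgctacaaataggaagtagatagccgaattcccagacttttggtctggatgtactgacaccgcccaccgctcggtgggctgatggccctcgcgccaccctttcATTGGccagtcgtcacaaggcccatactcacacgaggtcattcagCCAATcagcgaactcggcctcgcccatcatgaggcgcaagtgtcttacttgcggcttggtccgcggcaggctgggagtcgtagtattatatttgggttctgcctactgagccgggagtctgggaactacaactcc
The box was found on either strand in 11 of the 17 sterol genes that have a RefSeq promoter, and in 37.7% of all promoters. The sterol regulatory element TCACNCCAC was found in 0 of the 17, against 1.13% of all promoters, which says only that these letters are not in these windows.

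Genes of reactive gliosis were mixed, 21 of 30 with a higher and 9 with a lower mean in the high libraries and a median difference of 0.27. With all 9 libraries 0 of 30 were higher without overlap, against 4.83% of all genes, and 1, Hspb1, was lower, against 3.27%. Without MSCEPO 2, 13 of 30 were higher, against 13.7% of all genes, and 4 were lower, against 10.9%, and the median was 0.47. The list level did not break at 1 point of the ranking, since above NT it was 1.43 in DPSC 1 beside 1.46 in MSC 3, but some of its genes did. Nes, the intermediate filament nestin, read 9.33 in MSC 1, 9.36 in MSC 2, 9.49 in MSCEPO 1, 9.61 in DPSC 2, 9.21 in MSC 3 and 9.70 in MSCEPO 2. It read 7.76 in DPSC 1, 8.18 in MSCEPO 3 and 7.51 in DPSC 3, beside a Sham mean of 8.03 ± 0.05 and an NT mean of 6.41 ± 0.06 (SD, n = 3 each). The 6 libraries with the highest Ptprc thus lay above the Sham libraries, which read 7.97 to 8.07. Of the other 3, DPSC 1 and DPSC 3 lay below that range and MSCEPO 3 above it. Cp, the ferroxidase ceruloplasmin, showed the same break, from 14.14 to 14.61 in those 6 libraries and from 13.02 to 13.07 in the other 3, with a Sham mean of 13.16. A2m, a protease inhibitor, and Osmr, the receptor of oncostatin M, broke at the same place, at 15.13 to 15.82 against 14.10 to 14.45 and at 8.51 to 9.11 against 7.24 to 7.85. Vim, the filament protein vimentin, did not show this break and was highest in DPSC 1, at 14.34. Nes, Cp, A2m, Osmr and Serpina3n were chosen after their values were seen.

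Serpina3n, an acute phase protease inhibitor, was more uneven, at 13.33 in MSCEPO 2, 13.32 in MSCEPO 1, 12.91 in MSC 3, 11.73 in MSC 1, 11.05 in MSC 2 and 10.54 in DPSC 2. It lay between 9.43 and 9.72 in the other 3 libraries. Its order among the 6 did not follow Ptprc. Gfap, the classic marker of gliosis, overlapped, at 13.33 to 13.99 in the high and 12.71 to 14.13 in the low libraries. Hspb1, a small heat shock protein, read 8.46 to 8.81 in the high libraries, 8.87 in MSCEPO 2, 10.01 in DPSC 1, 8.90 in MSCEPO 3 and 9.33 in DPSC 3. Cryab, also on this list and abundant in lens, had a difference of -2.44. The lens markers were high in the same 3 libraries, as given below, and the part of lens RNA in Hspb1 and Cryab was not tested.

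**Figure D3:**
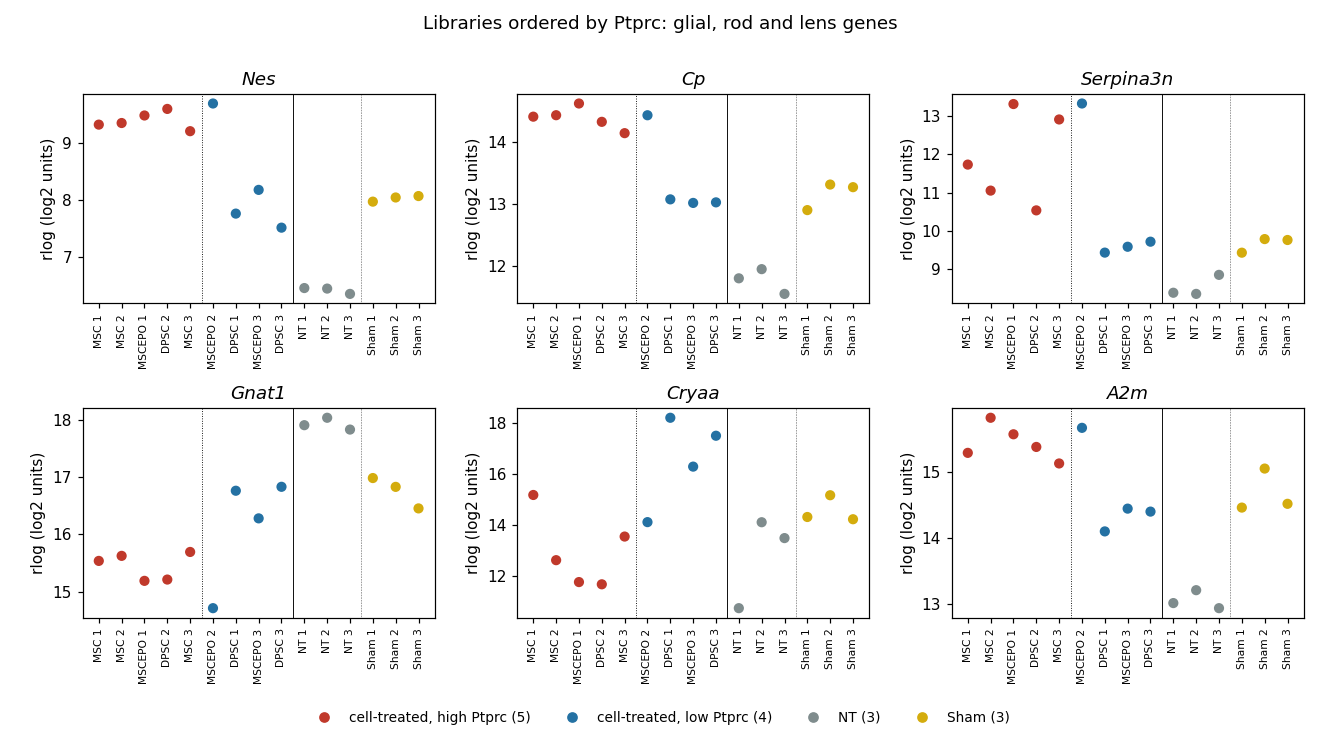
The rlog level (log2 units) of 6 glial, rod and lens genes in each of the 15 libraries, cell-treated libraries in the order of Ptprc. Nes and Cp break between MSCEPO 2 and DPSC 1, from 9.70 to 7.76 for Nes, and Cryaa is highest in DPSC 1, MSCEPO 3 and DPSC 3.

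Ganglion cell genes were slightly lower in the high libraries. Of the 24 measured, 22 were on the negative side with a median of -0.30. Lower without overlap were 3 (Opn4, Pou4f3 and Isl2), against 3.27% of all genes. Opn4, the photopigment melanopsin of intrinsically photosensitive ganglion cells, lay between 7.20 and 7.36 in the high libraries. It read 7.54 in MSCEPO 2, 8.15 in DPSC 1, 7.58 in MSCEPO 3 and 7.77 in DPSC 3, with an NT mean of 8.36 and a Sham mean of 7.93. Pou4f3, a POU-domain transcription factor of ganglion cells, lay between 5.41 and 5.67 in the high and 5.77 and 6.28 in the low libraries. Isl2, a LIM homeobox factor of ganglion cells, had a difference of -0.27. Without MSCEPO 2, 9 of 24 were lower without overlap, against 10.9% of all genes, among them Uchl1, Sncg and Pou4f2 with differences of -0.80, -0.72 and -0.70. Rbpms, the usual pan-ganglion marker, overlapped, at 7.16 to 7.56 against 7.46 to 7.78, with a difference of -0.18. Without MSC 3 the count of lower genes without overlap was 5 of 24, against 6.38% of all genes. MSCEPO 3 had the highest level of the list, and the median was -0.20 without it.

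The photoreceptor lists did not separate the groups with all 9 libraries. Gnat1, the rod transducin subunit, lay between 15.19 and 15.69 in the high libraries and read 16.76 in DPSC 1, 16.28 in MSCEPO 3 and 16.83 in DPSC 3. MSCEPO 2 had the lowest Gnat1 of all, at 14.71. Every cell-treated library was below the lowest NT library, at 17.83, so a level below NT was present on both sides of the ranking. The Sham libraries lay between 16.45 and 16.99. DPSC 1 and DPSC 3 were within that range and MSCEPO 3 was just below it, while MSCEPO 2 and the high libraries lay lower. Without MSCEPO 2 the Gnat1 difference was -1.17, and the groups did not overlap. The 19 rod phototransduction genes had a median of -0.14, with 0 without overlap. Without MSCEPO 2 the median was -0.27 with 6 of 19 lower without overlap, against 10.9% of all genes. The median was also -0.27 without MSCEPO 3, in which Rgs9, Gucy2f and Grk1 were low. Cone genes had a median of 0.02 with 0 of 11 without overlap, and Arr3, cone arrestin, overlapped.

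Of 18 genes of the photoreceptor outer segment and cilium, 2 were higher without overlap in the high libraries, against 4.83% of all genes. These were Impg2, a proteoglycan of the matrix around outer segments, and Cep290, a protein of the connecting cilium, but MSCEPO 3 decided their size. Impg2 read 11.90 in MSCEPO 3 and between 13.53 and 14.39 in the other 8 libraries, and its difference of 0.95 was 0.49 without that library. Cep290 went from 0.39 to 0.23. Samd11, a regulator of rod gene expression, was lower, at 10.89 to 11.55 in the high and 11.66 to 12.09 in the low libraries. Bipolar, amacrine and horizontal cell lists had medians of -0.12 each and 0 genes without overlap, and without MSC 1 the medians were -0.03 and -0.05. Homeostatic Müller glia genes had a median of 0.06, with 14 of 25 on the positive and 11 on the negative side. Of the 25, 0 were higher without overlap and 1 was lower, against 3.27% of all genes. The 1 was Rlbp1, the retinaldehyde binding protein of Müller glia, with a difference of -0.39 and 12.19 in MSC 1. Rpe65, the isomerase of the pigment epithelium, overlapped.

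Lens genes differed most of any list and did not follow the ranking. The 23 measured genes had a median difference of -3.27, and 0 did not overlap with all 9 libraries. Cryaa, a major crystallin, read 18.21 in DPSC 1, 17.50 in DPSC 3, 16.29 in MSCEPO 3 and 14.11 in MSCEPO 2. It read 15.18 in MSC 1, 13.54 in MSC 3, 12.62 in MSC 2, 11.76 in MSCEPO 1 and 11.67 in DPSC 2, while the NT libraries lay between 10.73 and 14.11. High levels in DPSC 1, MSCEPO 3 and DPSC 3 coincide with 3 low-Ptprc libraries, and without MSCEPO 2 17 of 23 genes were lower without overlap, against 10.9% of all genes. The list level lay between 0.89 and 1.22 above NT in the Sham libraries, and at 1.95 in MSC 1, 0.05 in MSC 2, -0.92 in MSCEPO 1, -1.04 in DPSC 2 and 0.95 in MSC 3. The 3 libraries lowest in Ptprc also held the most lens RNA, so low leukocyte RNA and high lens RNA cannot be told apart there, and the part of lens RNA in the sterol, glycolysis and gliosis differences was not tested.

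Apoptosis genes were mostly higher, 21 of 26 with a median of 0.35, and 0.19 without MSC 1. Of the 26, 3 were higher without overlap, against 4.83% of all genes, and 1 was lower, against 3.27%. The higher were Bcl2a1, an inhibitor of apoptosis found largely in leukocytes, Fas, the death receptor, and its ligand Faslg. The lower was Bad, which promotes apoptosis. Bcl2a1 read 9.09 in MSC 1, 7.23 in MSC 2, 7.13 in MSCEPO 1, 6.44 in DPSC 2 and 6.30 in MSC 3, and between 5.58 and 6.27 in the low libraries. Its difference of 1.38 was 0.92 without MSC 1. Fas lay between 7.25 and 8.03 in the high libraries and between 6.73 and 7.07 in the low ones. Without MSCEPO 2, 11 of 26 were higher, against 13.7% of all genes, and without MSC 3, 9 of 26, against 9.2%, the largest besides Bcl2a1 being Casp1, the inflammasome protease, with a difference of 1.13 with all 9 libraries. Several of these genes are expressed in leukocytes as well as in retina.

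Smaller differences were seen in other processes. Per2 and Npas2, parts of the circadian clock, were lower without overlap, 2 of 17 clock genes against 3.27% of all genes. Their differences were -0.51 and -0.22, with Per2 at 8.75 to 9.32 in the high and 9.36 to 9.95 in the low libraries. Of the 17 clock genes, 6 were lower without overlap without MSCEPO 2, against 10.9% of all genes. Rb1, the retinoblastoma protein, and Cdkn1b, the cell cycle inhibitor p27, were higher by 0.42 and 0.21, and Mycn, a transcription factor of growth, had a difference of -0.54. Without overlap these were 2 of 17 genes of the G1 list higher, against 4.83% of all genes, and 1 lower, against 3.27%. Rb1 read 8.76 in MSCEPO 3, and its difference was 0.17 without it. Slc16a3, a lactate transporter, and Egf, epidermal growth factor, had differences of -0.40 and -0.43, and Itgb3, an integrin of platelets and endothelium, was higher by 0.49. Glycolysis had a median of -0.18 with Pfkm, a phosphofructokinase, lower without overlap, 1 of 26 against 3.27% of all genes. Without MSCEPO 2 10 of 26 were lower, against the same 10.9%. The respiratory chain had 27 of 30 on the negative side with a median of -0.17 and 0 without overlap, a median of -0.08 without MSCEPO 3 and 6 lower without overlap without MSC 1, against 5.58% of all genes. Antioxidant genes had a median of 0.03 with 0 without overlap.

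**Figure D4:**
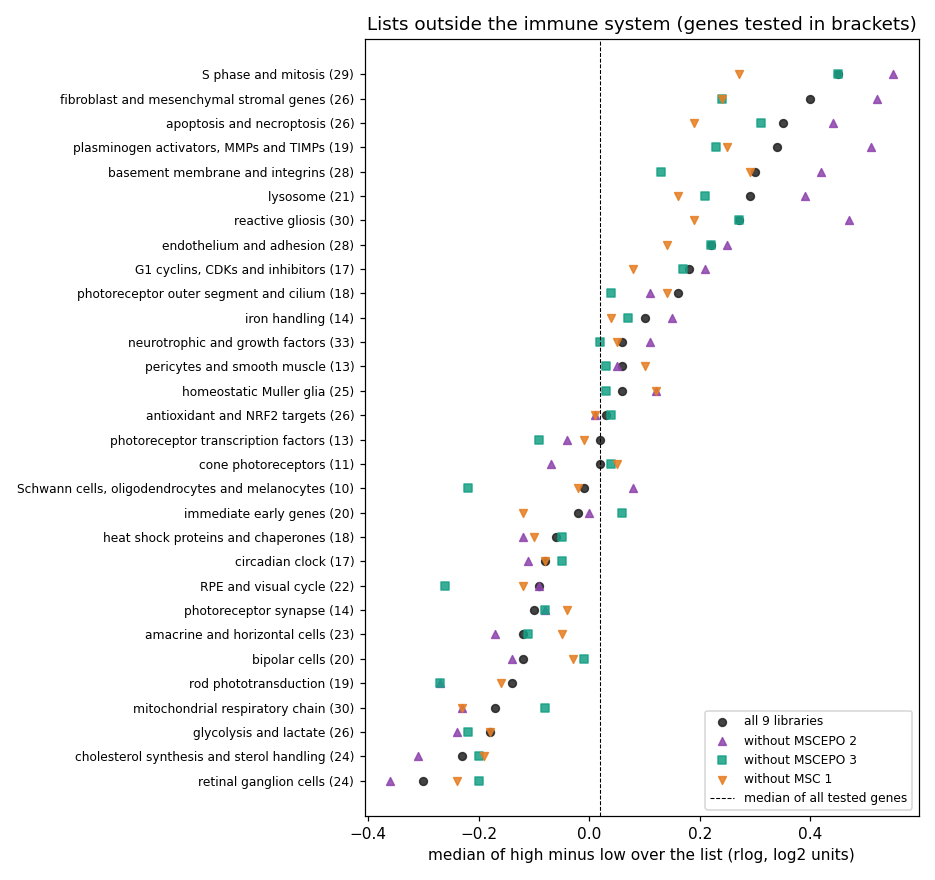
Median of high minus low over each non-immune list (rlog, log2 units), with all 9 libraries and without MSCEPO 2, MSCEPO 3 or MSC 1; the lens and erythrocyte lists are not drawn. With all 9 libraries S phase and mitosis is highest at 0.45 and ganglion cells lowest at -0.30, and without MSC 1 basement membrane and integrins (0.29) lies above S phase and mitosis (0.27). The dashed line is the median of all genes, 0.02.

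Among genes with a symbol outside the immune lists and name patterns, those that did not overlap and kept 1 direction in each product had largest differences of 1.22 to 3.0. The direction was read from the lowest to the highest Ptprc library of a product. Without overlap it was already fixed in MSCEPO and DPSC, so this condition added only MSC 1 against MSC 3, both high libraries. The 12 genes were LOC690813, LOC100361706, Gvin1, LOC100360573, Lax1, Spn, Ctsw, Fyb1, Bcl2a1, Cmahp, Lcp2 and Knl1. Lax1, Spn, Ctsw, Fyb1 and Lcp2 are known in lymphocytes or other leukocytes, so the lists and patterns did not remove every leukocyte gene. Gvin1, an interferon-induced very large GTPase, read 9.72 in MSC 1, 8.57 in MSC 2, 8.15 in MSCEPO 1, 7.62 in DPSC 2 and 7.12 in MSC 3, then 7.08 in MSCEPO 2, 5.54 in DPSC 1, 5.11 in MSCEPO 3 and 5.08 in DPSC 3. It stepped down in the order of Ptprc. Lax1 depended on MSC 1, with a difference of 2.25 that was 1.28 without it. The largest difference of all was of a gene the files pair with no symbol, ENSRNOG00000030332, at 11.47 to 14.72 in the high libraries and 4.77 to 5.05 in the low ones, MSCEPO 2 among them.

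Under the same conditions, which the lens genes do not meet because they overlap, the largest differences in the other direction were smaller. Adamts18, a secreted metalloproteinase, was the 1 gene lower by more than 1 without overlap, at 5.30 to 5.44 in the high libraries, 6.40 in MSCEPO 2, 7.72 in DPSC 1, 5.57 in MSCEPO 3 and 6.47 in DPSC 3. The difference was -1.14, and -0.75 without DPSC 1. Its NT mean of 5.56 ± 0.32 (SD, n = 3) lay near the high libraries, while the Sham libraries, at 5.57, 6.42 and 6.37, all lay above them and overlapped the low ones. Arvcf, a catenin of cell junctions, lay at 9.51 to 9.85 in the high and 10.14 to 11.07 in the low libraries, with 9.49 ± 0.03 in NT and 9.78 ± 0.08 in Sham (SD, n = 3 each). Ca5a, a mitochondrial carbonic anhydrase, Samd11, Med22, a subunit of the Mediator complex, Plk5, Sh2d5, Gls2, Dqx1, Dhrsx and Golga7b were also among the largest, with differences between -0.75 and -0.63. Gls2, a mitochondrial glutaminase, lay between 7.47 and 7.71 in the high libraries and read 7.84 in MSCEPO 2, with 8.34 to 8.43 in the other 3. Its NT mean was 8.32 ± 0.08 and its Sham mean 8.10 ± 0.10 (SD, n = 3 each), so for Gls2 the high libraries stood apart.

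The Sham and NT libraries, which the ranking did not use, allow a test of the same genes after sodium iodate without cells. With limma on these 6 libraries and Benjamini-Hochberg adjustment, 788 genes (5.1%) rose in Sham and 545 (3.52%) fell at an adjusted p under 0.05. The counts depend on the fit: with all 15 libraries in one fit they were 85 and 49, and with 1 library left out they ranged from 264, without NT 1, to 605, without Sham 1, and from 137, without NT 1, to 331, without Sham 1. Reactive gliosis had 18 of 30 genes higher in Sham and 0 lower. Nes rose by 1.62 ± 0.09 (SE; limma adjusted p 0.000548, from 0.000613 to 0.144 over the alternatives), and Cp by 1.39 ± 0.14 (limma adjusted p 0.00362, from 0.00345 to 0.135). Rods had 13 of 19 lower and 0 higher in Sham.

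Values between Sham and NT are given for the other lists without a test of how they differ from the ranking. S phase and mitosis had 2 of 29 higher and 1 lower with a median of 0.04, ganglion cells 0 of 24 in either direction with a median of 0.01, and sterol genes 2 of 24 in each direction with a median of -0.13. Pan-leukocyte markers had 9 of 16 higher, Ptprc by 0.95 ± 0.15 (SE; limma adjusted p 0.0135, from 0.0133 to 0.695 over the alternatives). Of the 575 non-immune genes higher in the high libraries, 44 (7.65%) rose in Sham and 10 (1.74%) fell, and of the 482 lower ones 2 (0.415%) rose and 14 (2.9%) fell. Over all 13912 non-immune genes with a symbol the shares were 4.41% and 3.77%. With MSCEPO 2 left out of the ranking, 232 of 1619 higher genes (14.3%) rose in Sham and 204 of 1609 lower genes (12.7%) fell. Of 33 named genes that differed between Sham and NT, 2, Gfap and Timp1, passed under every alternative fit.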

How the data were processed

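RNA-seq was run on 15 retinas (NT, Sham, MSC, MSCEPO and DPSC, 3 libraries each), grouped by the sample labels. The authors quantified reads with Salmon 1.1.0 and deposited log2 values, the regularized log (rlog) of DESeq2. No counts were used here, so depth is unknown and no counting interval is given. The files also hold 15 columns that copy the values in a series table, and a column without a name; none were used.

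Genes with a mean rlog of at least 3.32 over the 9 cell-treated libraries were kept, 15461 of 20375 (2591 listed without a symbol). A gene did not overlap where all 5 high libraries lay on one side of all 4 low ones; it followed the infiltrate where the difference of means was also over 1. Sham and NT were compared with limma 3.58.1 (R 4.3.3, trend on the mean), a test written for log2 values in place of the count test that the study used. P-values were adjusted by Benjamini-Hochberg, and measure the spread between these libraries, which the labels do not tie to separate animals.

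The members, 41 gene lists, name patterns and tests were chosen with earlier results of these data known. Named genes are Ptprc and the pan-leukocyte list, up to 4 non-overlapping genes of each non-immune list, the 12 largest non-overlapping differences in each direction outside the immune lists with 1 sign in all 3 products, and fixed markers. Others were chosen after their values were seen, such as Mki67, Top2a, Insig1, Abca1, Nes, Cp, Casp1 and the unnamed gene. Promoters are those of RefSeq (GRCr8), matched by symbol; motifs were chosen after the values were seen. No promoter is printed for Aurkb. Some genes that the rule selects are not reported here. The scripts were tested on simulated data. Python 3.11.15 and matplotlib 3.10.9 were used otherwise.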

Additional observations from a re-analysis of the deposited data

Results flagged for a closer look

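In 14 of 112 groups checked (12.5%), 1 library was farther from the others than Dixon's 95% limit allows, 0.829 of the range for the 4 low and 0.71 for the 5 high libraries; about 1 in 20 would be by chance. MSC 1 was that library in 8 of the 14. It was high in the S phase and mitosis list (8.06), Aurkb (8.44), Faslg (5.24), Lax1 (10.28), Ctsw (9.60) and Fyb1 (10.51), and low in Rlbp1 (12.19) and Mycn (6.50). MSCEPO 3 was low in Rb1 (8.76) and Prkca (10.23), a kinase of rod bipolar cells. MSCEPO 2 was high among the low libraries in LOC690813 (5.77), LOC100360573 (4.97) and Fyb1 (8.63), and low among them in Gls2 (7.84), on the side of the high libraries each time.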

How the results depend on the processing

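With all 9 libraries, 140 genes followed Ptprc upward and 1 downward by over 1. Centring on the median gave 5 downward, equal quantiles gave 7, and without the threshold of 1 the counts were 746 and 505. With 1 library left out they ranged from 112 to 474 upward and from 1 to 46 downward. Other filters and the cell product as a term left both counts within 1.5 times. The product term changed only the difference and kept the non-overlap calls of the main run, so part of that stability was built in. No named gene without overlap turned its direction under any alternative run. Leaving out a library or adding the product term cannot turn such a gene, so only median centring and quantile normalization could have. Of the named genes that overlapped, 6 with small differences turned in at least 1 run (Arr3, Best1, Glul, Lrat, Timp1 and Vim). Quantile normalization moved Pou4f3, Isl2, Egf and Pou4f1 by more than the spread between libraries. Medians of the lists moved by less than that spread in 491 comparisons and by more in 1, that of growth factors without DPSC 3.

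For Sham against NT, 788 and 545 genes became 85 and 49 in one fit of all 15 libraries and 413 and 306 with no filter; the cause was not tested. With 1 library left out they ranged from 264 to 605 and from 137 to 331. The replicate number as a block (replicate block) gave 612 and 367. Same-numbered NT and Sham libraries had correlations of deviations of -0.25, 0.16 and -0.06, and the other pairs -0.26 to 0.36. Deviations from a mean of 3 libraries are tied to each other, so these values cannot decide whether the numbers mark a pairing. Depth is unknown from rlog values and limits low genes.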

Other observations

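Stromal genes had a median difference of 0.40 with 0 of 26 without overlap, and 0.24 without MSC 1 or without MSCEPO 3. Lum, a collagen-binding proteoglycan, was high in MSC 1 (9.45), DPSC 2 (9.42), MSCEPO 1 (9.16) and DPSC 1 (8.89), and low in MSC 3 (6.55), DPSC 3 (6.67) and MSCEPO 3 (6.07), so it did not keep the order of Ptprc. Col1a1, a chain of type I collagen, read 10.14 in MSC 1, 9.60 in DPSC 2, 9.54 in MSCEPO 1 and 9.43 in DPSC 1, against 7.86 in DPSC 3. The highest libraries for both genes were thus 3 of the 5 high ones and DPSC 1. MSC 2 came next for both, at 9.21 for Col1a1 and 7.68 for Lum.

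Hba-a2, an alpha globin, read 7.63 in MSCEPO 2, 10.00 in DPSC 1, 8.68 in MSCEPO 3 and 7.57 in DPSC 3. The high libraries lay at 6.91 to 8.60, so the groups overlapped and this gene did not keep the order of Ptprc. The part of blood RNA in the Ptprc levels was not tested. A second gene without a symbol, ENSRNOG00000030575, read 9.92 to 13.21 in the high libraries, 9.41 in MSCEPO 2 and 5.23 to 5.48 in the other low libraries.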
